A study of Mus musculus with 12 samples.

Results

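Wild-type peritoneal macrophages stimulated with lipopolysaccharide (LPS) were compared with unstimulated wild-type macrophages across the genes of the deposited tables. Every gene listed there was taken, whatever its level or change. The comparison uses 4 of the 12 libraries in the series, 2 from mice whose cells received LPS and 2 from mice whose cells received nothing. The study as a whole asked how loss of *N4bp1*, an inhibitor of NF-κB signaling, alters the response of macrophages to ligands of Toll-like receptors (TLRs). The listed genes are those the study calls NF-κB-dependent, and the rule of their choice was not given in the sources used here.

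Stimulated cells received LPS at 10 ng/ml for 2 h. Further groups cited below for reference are wild-type cells given R848, a TLR7 ligand, at 20 ng/ml for 2 h, *N4bp1* KO cells given the same dose of LPS, and unstimulated *N4bp1* KO cells. All mice were C57BL/6J, and for the study as a whole the methods give mice of both sexes aged 8 to 12 weeks. According to the study's methods the macrophages were drawn to the peritoneal cavity by an injection of thioglycollate medium, an irritant, so they are largely recruited cells and not the macrophages that reside there. Each group held cells of 2 mice, and the experiment was performed once. Values are FPKM, counts of sequenced fragments scaled to transcript length and library size. Only the authors' mean over both mice was deposited for each genotype and treatment, so no error, no test and no value for a single mouse stand behind any level or ratio below. Whether a given difference exceeds the spread between mice could not be examined, and the depth of the libraries is unknown. The unstimulated libraries carry another label prefix than the stimulated ones, and if the prefixes mark a batch, it and the stimulus cannot be told apart.

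LPS, a glycolipid of the outer membrane of Gram-negative bacteria, is bound by TLR4 with its partner MD-2. TLR4 signals at the plasma membrane through the adapter MyD88, which leads to NF-κB and MAP kinases, and after uptake into endosomes through the adapter TRIF, which also activates the transcription factor IRF3 and with it type I interferon. NF-κB dimers are held in the cytoplasm by IκB proteins until the IKK complex marks these for degradation, and the dimers then enter the nucleus and bind κB sites near cytokine, chemokine, survival and feedback genes.

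A higher mean FPKM after LPS than without stimulus was found for 123 genes, and *Fcer2a*, the only other gene listed, had a lower one. The median gene was 13.2-fold higher after LPS, a log2 ratio of 3.73, with quartiles of 2.29 and 5.74. At least 2-fold higher were 113 genes (91.1%), at least 10-fold higher were 69 (55.6%) and at least 100-fold higher were 25 (20.2%), and 9 genes were over 1000-fold higher. The list consists of NF-κB-dependent genes, so these shares describe the list and not the transcriptome. They are the reference for the counts in smaller groups below. The median level over all genes was 63.6 FPKM after LPS and 3.90 FPKM without stimulus. The levels of all genes summed to 40811 FPKM after LPS, against 2316 FPKM without stimulus, a 17.6-fold difference. After LPS 54 genes stood at or over 100 FPKM and 11 at or over 1000 FPKM, against 7 and 0 genes in unstimulated cells.

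**Figure D1:**
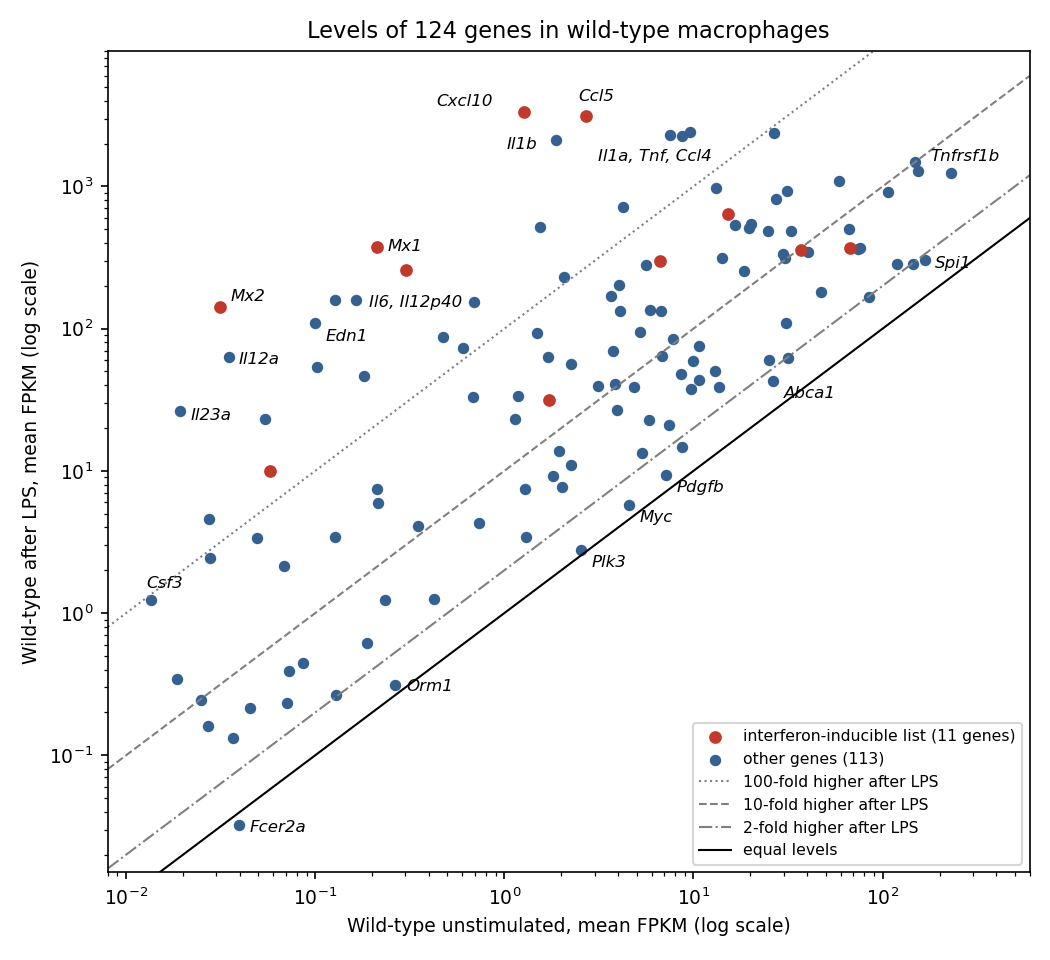
Mean FPKM of each gene after LPS (vertical axis) against unstimulated cells (horizontal axis), both on log scales, with the 11 genes of the interferon-inducible list in red. Lines mark equal levels and 2-, 10- and 100-fold higher levels after LPS: 25 genes lie on or above the 100-fold line and *Fcer2a* alone lies below the line of equal levels.

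For the genes with the largest ratios, the promoters are shown because κB sites and interferon response elements are the DNA sequences through which NF-κB and the interferon pathway act. The sequences are from RefSeq (build GRCm38.p6) and were searched on both strands for 3 patterns, the κB consensus, the core of the interferon-stimulated response element (GAAANNGAAA) and the AP-1 site (TGANTCA), the last of which reads the same on both strands. Printed are the 250 bases before the annotated start site, 5′ to 3′ on the strand of the gene, for the 5 genes of largest ratio with an entry (*Il12a* has 2 start sites), with capitals marking every match. The windows are chr5:92348890-92349139 (minus strand) for *Cxcl10*, chr3:68690394-68690643 and chr3:68691174-68691423 (plus strand) for *Il12a*, chr5:30012864-30013113 (plus strand) for *Il6*, chr2:129371140-129371389 (minus strand) for *Il1b* and chr13:42301226-42301475 (plus strand) for *Edn1*.
Cxcl10: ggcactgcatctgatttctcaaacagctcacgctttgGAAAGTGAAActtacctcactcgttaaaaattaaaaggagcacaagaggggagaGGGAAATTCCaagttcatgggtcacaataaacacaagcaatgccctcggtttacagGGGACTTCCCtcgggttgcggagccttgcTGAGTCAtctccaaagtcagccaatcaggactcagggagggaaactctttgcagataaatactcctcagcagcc
Il12a, upstream start site: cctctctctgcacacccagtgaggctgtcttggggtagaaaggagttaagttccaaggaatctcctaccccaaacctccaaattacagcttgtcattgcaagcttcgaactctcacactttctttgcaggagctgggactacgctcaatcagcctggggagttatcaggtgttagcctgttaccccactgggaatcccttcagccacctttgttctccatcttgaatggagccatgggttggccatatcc
Il12a, downstream start site: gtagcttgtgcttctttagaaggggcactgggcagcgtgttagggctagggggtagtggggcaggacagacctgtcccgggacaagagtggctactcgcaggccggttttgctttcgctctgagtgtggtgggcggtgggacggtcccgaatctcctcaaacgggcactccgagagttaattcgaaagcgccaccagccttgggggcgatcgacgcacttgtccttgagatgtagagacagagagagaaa
Il6: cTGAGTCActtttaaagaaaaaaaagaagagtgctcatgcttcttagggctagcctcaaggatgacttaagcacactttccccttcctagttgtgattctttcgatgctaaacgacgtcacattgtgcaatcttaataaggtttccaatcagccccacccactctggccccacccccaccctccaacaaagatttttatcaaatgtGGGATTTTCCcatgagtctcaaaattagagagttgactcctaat
Il1b: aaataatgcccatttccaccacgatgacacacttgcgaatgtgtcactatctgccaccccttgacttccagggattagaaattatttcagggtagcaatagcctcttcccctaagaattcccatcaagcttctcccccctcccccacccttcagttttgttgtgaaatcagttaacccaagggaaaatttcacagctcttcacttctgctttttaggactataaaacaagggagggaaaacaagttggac
Edn1: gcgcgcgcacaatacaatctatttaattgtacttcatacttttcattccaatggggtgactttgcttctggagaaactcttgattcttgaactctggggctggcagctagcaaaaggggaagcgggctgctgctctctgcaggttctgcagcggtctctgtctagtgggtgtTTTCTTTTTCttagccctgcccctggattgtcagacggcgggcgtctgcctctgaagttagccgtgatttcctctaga

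*Cxcl10* had 2 κB matches, at 159 and 103 bases before the start site, an interferon element core at 213 bases and an AP-1 match at 74 bases before it. *Il6* had a κB match at 44 bases and an AP-1 match at 249 bases before the start site. *Edn1* had an interferon element core on the opposite strand at 78 bases before the start site, and neither *Il12a* window nor that of *Il1b* held any of the patterns. Promoters of 85 genes were matched by symbol, in 109 windows of 300 bases (250 before and 50 after each start site). The κB consensus occurred in 26 of these windows (23.9%), against 4.51% of all 32851 RefSeq windows of the same length. Genes listed as NF-κB-dependent may have been chosen with κB sites known, so this share describes the list and not the response to LPS. AP-1 matches occurred in 26 windows (23.9%), against 7.81% of all windows, and the interferon element core in 4 (3.67%), against 3.44% of all windows. By ratio, a κB match was in 3 of 16 windows of genes at least 100-fold higher (18.8%), in 17 of 42 windows of genes 10- to 100-fold higher (40.5%) and in 6 of 51 windows of the remaining genes (11.8%). The share was thus highest in the middle class of ratio, but windows and not genes were counted, and the classes are small. *Nfkb2* of the middle class had several windows with a match, while *Mx2*, *Mx1*, *Il23a*, *Ccl5* and others of the top class had no window. A match is a string of letters, not a shown binding site.

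Of the pro-inflammatory cytokines, *Il1a*, *Tnf* and *Il1b* were among the 10 highest genes after LPS. All 6 were at least 10-fold and 5 were at least 100-fold higher, against 55.6% and 20.2% of all genes. Their median log2 ratio was 8.65, beside 3.73 over all genes. *Il1b*, which encodes the secreted pyrogen interleukin-1β, had 2109.6 FPKM after LPS, against 1.89 FPKM without stimulus, 1118-fold higher. *Il1a*, its neighbor on chromosome 2 and a cytokine released from damaged cells, had 2295 FPKM after LPS, against 7.55 FPKM without stimulus, 304-fold higher. *Tnf*, the early cytokine that acts on endothelium and on other leukocytes, had 2281 FPKM after LPS, against 8.65 FPKM without stimulus, 264-fold higher. These 3 transcripts reached nearly the same level after LPS, while their unstimulated levels ran from 1.89 to 8.65 FPKM. *Il6*, which drives the acute phase response of the liver, had 160.0 FPKM after LPS, against 0.126 FPKM without stimulus, 1266-fold higher. Its ratio thus exceeded those of *Il1b*, *Il1a* and *Tnf*, whereas its level after LPS stayed below theirs. *Tnfsf15*, a TNF family ligand that co-stimulates T cells, had 54.0 FPKM after LPS, against 0.102 FPKM without stimulus, 528-fold higher. *Il15*, a survival factor for NK cells and memory T cells, had the smallest ratio of the 6, with 299 FPKM after LPS and 6.69 FPKM without stimulus, 44.7-fold higher.

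IL-12 family cytokines are pairs of subunits, and the partners differed in ratio. The 5 subunits had the largest median of the role groups, a log2 ratio of 9.90, which rests on unstimulated levels under 1 FPKM in 4 of them. *Il12a* (the p35 subunit of IL-12) had 62.8 FPKM after LPS, against 0.0348 FPKM without stimulus, 1803-fold higher. *Il12p40*, as the tables name *Il12b*, the subunit that IL-12 and IL-23 share, had 158 FPKM after LPS, against 0.165 FPKM without stimulus, 959-fold higher. *Il23a*, the p19 subunit of IL-23, had 26.2 FPKM after LPS, against 0.0193 FPKM without stimulus, 1359-fold higher. All 3 were under 1 FPKM without stimulus, and after LPS the shared subunit had the highest FPKM of them. *Il27* (the p28 subunit of IL-27) had 259.5 FPKM after LPS, against 0.301 FPKM without stimulus, 863-fold higher. Its partner *Ebi3* had 20.8 FPKM after LPS and 7.40 FPKM without stimulus, only 2.82-fold higher, and was the only one of the 5 subunits at or over 1 FPKM in unstimulated cells. Of the counter-regulators, *Il10*, which restrains macrophage activation, had 3.43 FPKM after LPS, against 0.127 FPKM without stimulus, 26.9-fold higher. *Il1rn*, the decoy ligand of the IL-1 receptor, had 501 FPKM after LPS, against 66.3 FPKM without stimulus, 7.56-fold higher. *Il1rn* was thus already far above *Il1a* and *Il1b* in unstimulated cells and below both of them after LPS.

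The 10 chemokines and the receptor *Ccr7* had a median log2 ratio of 7.40. Of these 11, 9 were at least 10-fold and 6 at least 100-fold higher, against 55.6% and 20.2% of all genes. *Cxcl10*, an interferon-inducible ligand of CXCR3 on T cells, was the highest of all genes after LPS, with 3350.5 FPKM, against 1.27 FPKM without stimulus, 2634-fold higher. *Ccl5*, which attracts T cells and monocytes, had 3128 FPKM after LPS, against 2.71 FPKM without stimulus, 1153-fold higher. The macrophage inflammatory proteins *Ccl4* and *Ccl3* reached 2408 and 2394 FPKM after LPS, against 9.53 and 26.6 FPKM without stimulus, 253- and 90.2-fold higher. *Ccl5*, *Ccl9*, *Ccl3* and *Ccl4* lie together at chr11:83524875-83664683, and their ratios within this cluster ran from 18.7-fold for *Ccl9* to 1153-fold for *Ccl5*. *Ccl9*, a monocyte attractant of mice, had 1099 FPKM after LPS, against 58.8 FPKM without stimulus. *Ccl2*, the ligand of CCR2 on monocytes, had 715 FPKM after LPS, against 4.24 FPKM without stimulus, 169-fold higher. The CCR4 ligands *Ccl22* and *Ccl17*, neighbors on chromosome 8, had 46.5 and 2.13 FPKM after LPS, against 0.182 and 0.0682 FPKM without stimulus. *Cxcl9*, which shares the receptor of *Cxcl10* and lies beside it on chromosome 5, reached 10.0 FPKM after LPS, against 0.0577 FPKM without stimulus, 173-fold higher. The neighbors *Cxcl10* and *Cxcl9* thus differed far more in level after LPS than in ratio. The neutrophil attractant *Cxcl5* had 9.15 FPKM after LPS, against 1.81 FPKM without stimulus, and *Ccr7*, which guides dendritic cells to lymph nodes, had 0.215 FPKM after LPS, against 0.0452 FPKM without stimulus.

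A list of 11 genes known to respond to interferon, chosen with earlier results of these data known, overlaps the other groups. All 11 were higher after LPS, as was every listed gene except *Fcer2a*, so this direction does not set the list apart. Of the 11, 9 were at least 10-fold and 6 at least 100-fold higher, against 55.6% and 20.2% of all genes. The median was 173-fold, a log2 ratio of 7.44, beside 3.73 over all genes. *Mx2*, an interferon-induced GTPase of the Mx family, had the largest ratio of all genes, with 142 FPKM after LPS, against 0.0315 FPKM without stimulus, 4524-fold higher. *Mx1*, the neighboring gene on chromosome 16, known for antiviral activity in strains with an intact gene, which C57BL/6 mice lack, had 376 FPKM after LPS, against 0.212 FPKM without stimulus, 1776-fold higher. GENCODE annotates *Mx2* as a polymorphic pseudogene in the reference strain, so its transcript need not yield a working protein. *Irf1*, a transcription factor of the interferon response, had 639 FPKM after LPS, against 15.2 FPKM without stimulus, 42.2-fold higher. *Tapbp*, which loads peptides onto MHC class I, had 31.7 FPKM after LPS, against 1.71 FPKM without stimulus, 18.5-fold higher. The proteasome activator *Psme2* and *Cd274*, which encodes the checkpoint ligand PD-L1, had 367 and 360.0 FPKM after LPS, against 66.8 and 37.0 FPKM without stimulus, and these were the smallest ratios of the list at 5.49- and 9.72-fold. The remaining members of the list, *Cxcl10*, *Ccl5*, *Il27*, *Cxcl9* and *Il15*, are described above.

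Wild-type cells given R848 share the unstimulated mean with the LPS comparison, so the ratios for LPS and for R848 are not independent. Levels and median ratios are set side by side, and no overlap or correlation of the ratios is given. *Cxcl10* had 3350.5 FPKM after LPS and 11.9 FPKM after R848, against 1.27 FPKM without stimulus. *Mx1* had 376 FPKM after LPS and 5.18 FPKM after R848, against 0.212 FPKM without stimulus. *Mx2* had 142 FPKM after LPS and 1.00 FPKM after R848, against 0.0315 FPKM without stimulus. All 11 genes of the interferon-inducible list had a higher mean FPKM after LPS than after R848, as did 77 genes in all. The remaining 47 genes were unchanged or higher after R848. The list's median ratio over unstimulated cells was 173-fold for LPS and 10.2-fold for R848. The list was chosen with earlier results of these data known, so its uniform direction describes these 11 genes only. Whether it holds for interferon-responsive genes outside the list was not tested. Over all genes the median ratio was 13.2-fold for LPS and 8.94-fold for R848. Among the pro-inflammatory cytokines, *Tnf* stood at 2281 FPKM after LPS and 2141 FPKM after R848, *Il1b* at 2109.6 and 1859 FPKM and *Il1a* at 2295 and 1478 FPKM, whereas *Il6* stood at 160.0 and 32.4 FPKM, *Il15* at 299 and 68.1 FPKM and *Tnfsf15* at 54.0 and 2.85 FPKM. All 6 pro-inflammatory cytokines had a higher mean after LPS than after R848. Outside the interferon list, *Adora2a*, an adenosine receptor, had 93.9 FPKM after LPS and 2.74 FPKM after R848, against 1.48 FPKM without stimulus. The genes at least 4-fold higher after LPS than after R848 numbered 20, and *Pdgfb* alone was at least 4-fold lower.

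**Figure D2:**
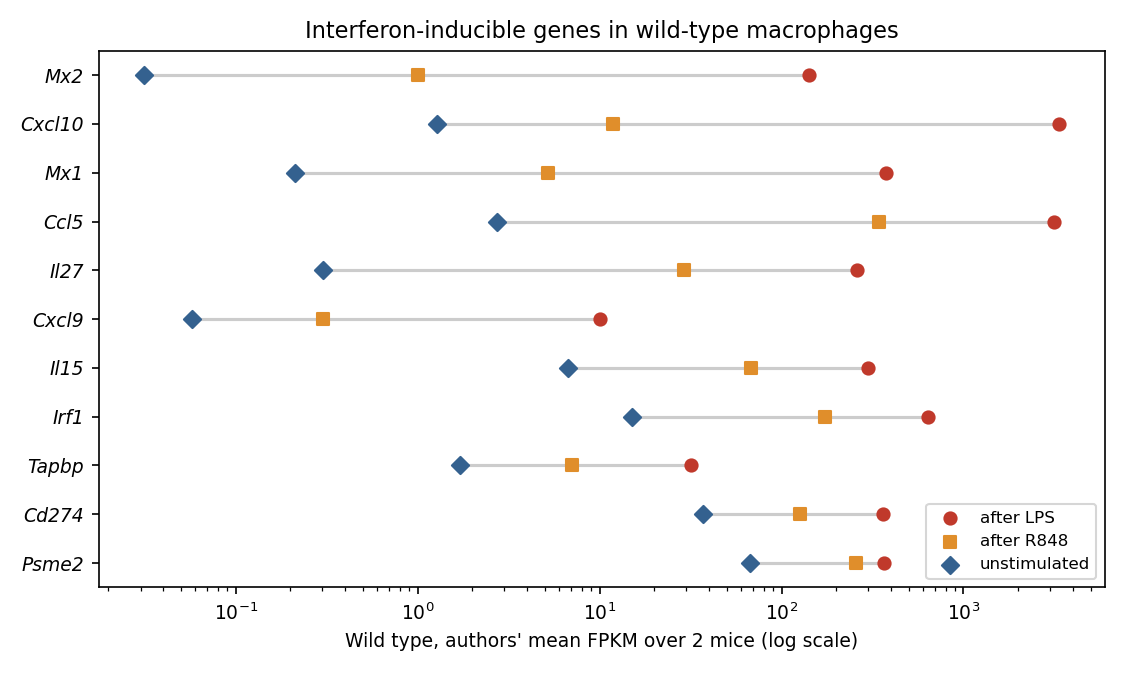
Mean FPKM on a log scale of the 11 interferon-inducible genes in wild-type cells after LPS (red circles), after R848 (orange squares) and without stimulus (blue diamonds), ordered by the ratio of LPS to unstimulated cells. In every row the order is LPS, R848, unstimulated from high to low, and the gap between LPS and R848 is widest in *Cxcl10*, *Mx2* and *Mx1*.

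The NF-κB subunits and the IκB and atypical IκB proteins were measured at 8 genes, and the subunit gene *Rela* was not among those listed. All 8 were at least 2-fold higher after LPS, as were 91.1% of all genes. Of the subunits, *Nfkb1* (p50) had 333 FPKM after LPS, against 29.9 FPKM without stimulus, and *Nfkb2* (p52) had 314 FPKM, against 14.1 FPKM, 11.1- and 22.3-fold higher. The subunits *Relb* and *Rel* had 75.8 and 59.6 FPKM after LPS, against 10.7 and 9.93 FPKM without stimulus, 7.10- and 6.00-fold higher. The subunits had a median log2 ratio of 3.15, and the IκB and atypical IκB proteins one of 5.23. *Nfkbia*, which encodes IκBα and closes the feedback loop on NF-κB, had the highest level of the 8 after LPS, with 822 FPKM, against 27.4 FPKM without stimulus, 30.0-fold higher. *Nfkbiz* (IκBζ), a nuclear protein needed for secondary genes such as *Il6*, had 231 FPKM after LPS, against 2.06 FPKM without stimulus, 112-fold higher. *Nfkbie* (IκBε) and *Bcl3*, an atypical nuclear member, were 46.6- and 10.8-fold higher. *Bcl3* and *Relb* are neighbors on chromosome 7, at 10.8- and 7.10-fold.

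Sensors, adapters and ubiquitin editors of the pathway had a median log2 ratio of 4.46. At least 10-fold higher were 6 of 8, against 55.6% of all genes. *Tnfaip3*, which encodes the deubiquitinase A20, had 536 FPKM after LPS, against 16.5 FPKM without stimulus, 32.4-fold higher. *Tlr2*, the receptor for bacterial lipopeptides, had 545 FPKM after LPS, against 20.2 FPKM without stimulus, 27.0-fold higher. *Nod2*, the cytosolic sensor of muramyl dipeptide, had 33.3 FPKM after LPS, against 0.683 FPKM without stimulus, 48.7-fold higher, and its kinase partner *Ripk2* was 18.1-fold higher. Receptors for other bacterial products were thus higher after a TLR4 ligand. *Traf1* was 32.3-fold higher and *Traf2*, a TNF receptor adapter, 3.87-fold higher. *Tnip1* and *Tnip3*, A20-binding inhibitors of NF-κB, were 10.3- and 5.55-fold higher.

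Survival and death genes had smaller ratios, with a median log2 ratio of 3.07. At least 10-fold higher were 4 of 10 and none at 100-fold, against 55.6% and 20.2% of all genes. *Cflar*, which encodes the caspase-8 inhibitor cFLIP, had 485 FPKM after LPS, against 24.9 FPKM without stimulus, 19.5-fold higher. *Bcl2a1d* and *Bcl2a1a*, near-identical copies of the survival factor A1, had 508 and 136 FPKM after LPS, against 19.6 and 5.88 FPKM without stimulus. The tables give both the same locus, and a joined row with *Bcl2a1b* had 1275 FPKM after LPS, against 154 FPKM without stimulus, so how reads were divided among the copies is uncertain. *Sod2*, the mitochondrial superoxide dismutase, was 13.8-fold higher. *Pim1*, *Ier3* and *Fas* were 8.55-, 7.96- and 6.81-fold higher. *Tnfrsf1b*, the TNF receptor TNFR2, had the highest level of all genes without stimulus, and had 1241 FPKM after LPS, against 229.9 FPKM in unstimulated cells, 5.40-fold higher. *Bcl2l11*, which encodes the pro-apoptotic protein BIM, had the smallest ratio of the group at 2.39-fold.

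Of the co-stimulation and surface molecules, 5 of 10 were at least 10-fold higher, near the 55.6% of all genes, with a median log2 ratio of 3.47. *Cd40*, the receptor for T cell help, had 515 FPKM after LPS, against 1.54 FPKM without stimulus, 334-fold higher. *Cd83*, a marker of maturation, had 487 FPKM after LPS, against 32.6 FPKM without stimulus, 14.9-fold higher. *Cd80*, a ligand of CD28, had 39.5 FPKM after LPS, against 3.12 FPKM without stimulus, 12.7-fold higher. *Cd40* lies beside *Mmp9* on chromosome 2, and *Mmp9* was only 2.64-fold higher. *Cd38*, an NAD-consuming ectoenzyme, was 37.1-fold higher, and *Cd44*, the receptor for hyaluronan, was 8.55-fold higher, at 910.3 FPKM after LPS and 106 FPKM without stimulus. *Il2ra*, *Trem1*, *Tnfrsf9* and *Fcer2a* stayed under 0.4 FPKM in both groups. *Fcer2a*, which encodes the low-affinity IgE receptor of B cells, had 0.0322 FPKM after LPS and 0.0395 FPKM without stimulus, values too low to carry a direction.

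Growth factors and hormones had a median log2 ratio of 4.49, and one of 1.99 with 1 FPKM added to both means. At least 10-fold higher were 6 of 8, against 55.6% of all genes. *Edn1*, which encodes the vasoconstrictor endothelin-1, had 110.5 FPKM after LPS, against 0.10 FPKM without stimulus, 1103-fold higher. *Csf1*, the macrophage growth factor, had 56.5 FPKM after LPS, against 2.26 FPKM without stimulus, 25.1-fold higher. *Csf3*, the granulocyte growth factor, reached only 1.23 FPKM after LPS, against 0.0135 FPKM without stimulus, 91.0-fold higher. *Inhba*, the activin A subunit, had 23.1 FPKM after LPS, against 1.14 FPKM without stimulus, 20.2-fold higher. The ratio of 67.9-fold for *Hamp*, which encodes the iron regulator hepcidin, and that of *Csf3* both rested on unstimulated levels under 0.1 FPKM. *Penk* and *Nrg1* were 11.7- and 3.26-fold higher, and *Pdgfb*, a mitogen of mesenchymal cells, had 9.33 FPKM after LPS and 7.17 FPKM without stimulus, 1.30-fold higher.

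Complement and acute phase genes divided into a few with large ratios and many at low levels. Their median log2 ratio was 2.43, and 4 of 11 were at least 10-fold higher, against 55.6% of all genes. *Ptx3*, a soluble pattern recognition protein, had 23.1 FPKM after LPS, against 0.0540 FPKM without stimulus, 428-fold higher. *Serpina3f* and *Serpina3g*, protease inhibitors clustered with *Serpina3n* on chromosome 12, had 4.61 and 5.98 FPKM after LPS, against 0.0274 and 0.214 FPKM without stimulus, 168- and 28.0-fold higher. *Serpina3n* of the same cluster was 5.16-fold higher and remained under 1 FPKM. A joined row of the complement genes *C2* and *Cfb* had 40.9 FPKM after LPS, against 3.84 FPKM without stimulus, 10.7-fold higher, and *C3*, the central complement component, was 4.02-fold higher. *Lcn2*, which sequesters bacterial siderophores, had 11.1 FPKM after LPS, against 2.26 FPKM without stimulus. *Orm1*, *Orm2* and *Orm3*, neighboring orosomucoid genes best known from liver, lay between 1.18- and 5.39-fold and no higher than 1.24 FPKM after LPS, and *Chil1* was at 0.244 FPKM after LPS and 0.0249 FPKM without stimulus.

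Lipid mediator genes had a median log2 ratio of 4.22, and one of 1.74 with 1 FPKM added to both means. At least 10-fold higher were 4 of 7, near the 55.6% of all genes. *Ptgs2*, the inducible cyclooxygenase of prostaglandin synthesis, had 154 FPKM after LPS, against 0.694 FPKM without stimulus, 222-fold higher. *Ptges*, the synthase that acts after it to make prostaglandin E2, had 33.4 FPKM after LPS, against 1.19 FPKM without stimulus, 28.1-fold higher. *Olr1*, a scavenger receptor for oxidized lipoprotein, was 18.6-fold higher, and the lipase *Lipg* was 88.0-fold higher, from an unstimulated level of 0.0277 FPKM. *Ptafr*, the receptor for platelet-activating factor, had 285 FPKM after LPS and 145 FPKM without stimulus, 1.96-fold higher, and *Abca1*, the cholesterol exporter, was 1.63-fold higher. *Cyp7b1*, an oxysterol hydroxylase, was 2.93-fold higher.

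Matrix, adhesion, coagulation and proteolysis genes had a median log2 ratio of 2.26. At least 10-fold higher were 4 of 12, against 55.6% of all genes. *Vcam1*, an adhesion molecule for leukocyte integrins, had 86.9 FPKM after LPS, against 0.476 FPKM without stimulus, 182-fold higher. *Sdc4*, a heparan sulfate proteoglycan of the cell surface, had 982 FPKM after LPS, against 13.1 FPKM without stimulus, 75.1-fold higher. *Cav1*, the coat protein of caveolae, had 279.6 FPKM after LPS, against 5.59 FPKM without stimulus, a log2 ratio of 5.65. Of the rest, 8 were under 10-fold. *F3*, tissue factor, was 7.06-fold higher, *F11r* 5.87-fold, *Thbs1* 3.91-fold and *Tgm2* 3.84-fold. *Fn1*, fibronectin, had 166 FPKM after LPS and 84.8 FPKM without stimulus, 1.96-fold higher, as was *Plau*, the urokinase protease. *Serpine2* stood just inside the 2-fold limit at 2.06-fold, with *Ptafr*, *Plau* and *Fn1* just outside it.

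The role group of transcription factors leaves out the NF-κB subunits and *Irf1*, which was placed with the interferon genes and was 42.2-fold higher. The group had the lowest median of the 17 role groups, a log2 ratio of 1.77. *Stat5a* alone of its 10 genes was at least 10-fold higher, against 55.6% of all genes. *Stat5a*, which relays signals of GM-CSF and other cytokines, had 133 FPKM after LPS, against 6.74 FPKM without stimulus, 19.7-fold higher. *Tfec*, a macrophage factor of the MiT family, was 9.37-fold higher, *Junb*, an AP-1 subunit, was 4.89-fold higher and *Cebpd* was 3.80-fold higher. A joined row that holds *Hif1a*, the hypoxia-inducible factor, was 3.53-fold higher. *Spi1*, which encodes the myeloid lineage factor PU.1, was among the highest genes without stimulus and had 304 FPKM after LPS, against 167 FPKM in unstimulated cells, 1.82-fold higher. *Myc*, a driver of growth, had 5.76 FPKM after LPS and 4.57 FPKM without stimulus, 1.26-fold higher. *Ier2*, *Sox9* and *Prdm1* had ratios between 2.49- and 3.29-fold.

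Cell cycle and stress genes had a median log2 ratio of 2.28. *Cdkn1a*, which encodes the cell cycle inhibitor p21, had 928 FPKM after LPS, against 31.3 FPKM without stimulus, 29.7-fold higher, and *Ccnd2*, cyclin D2, had 73.1 FPKM after LPS, against 0.605 FPKM without stimulus, 121-fold higher. *Gadd45b*, a stress-response gene, was 4.85-fold higher, *Cdk6* was 3.87-fold higher, and *Plk3*, a stress kinase, was nearly level at 2.76 FPKM after LPS and 2.54 FPKM without stimulus. Of the 6 genes outside these groups, *Tnfaip2* had 1478 FPKM after LPS, against 147 FPKM without stimulus, *Adora2a* was 63.5-fold higher and *Upp1*, uridine phosphorylase, was 35.1-fold higher. *Plcd1* and *Prkcd*, a phospholipase C and a protein kinase C, were 5.92- and 2.37-fold higher, and a joined row of *Ahctf1* and *Kif28* was 1.70-fold higher.

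**Figure D3:**
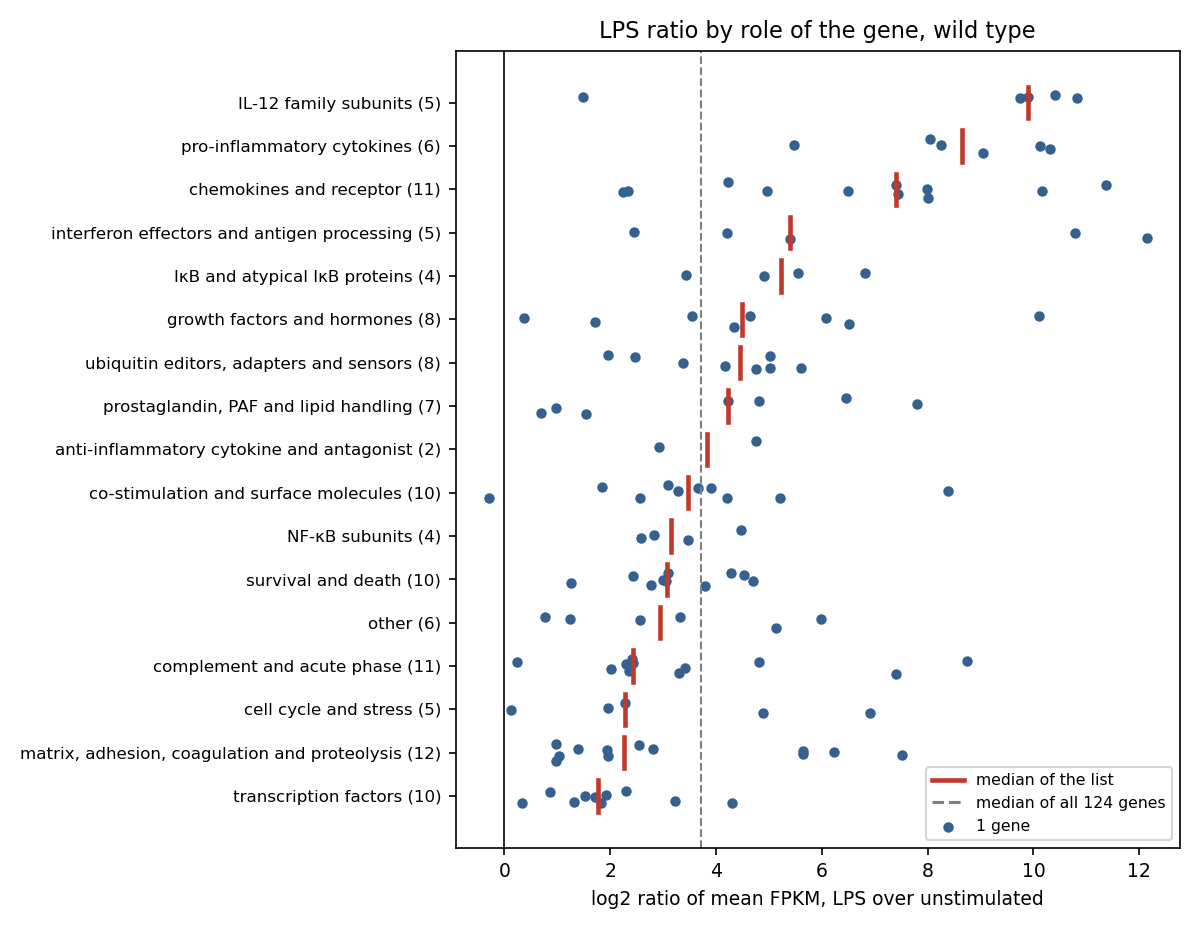
Log2 ratio of mean FPKM, LPS over unstimulated, for each gene (blue points) in 17 role groups with the number of genes in brackets, ordered by group median (red bars), and the median of all genes (dashed line). The medians run from 9.90 for IL-12 family subunits down to 1.77 for transcription factors, and within the IL-12 family the genes run from 1.49 to 10.82.

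The 11 genes under 2-fold were a mixed set. Some were already well expressed without stimulus, such as *Spi1*, *Ptafr* and *Fn1*, others were near 5 FPKM, such as *Myc*, and *Fcer2a* and *Orm1* were under 1 FPKM in both groups. Over all genes, a higher unstimulated level went with a smaller ratio and a higher LPS level with a larger one (Spearman's rho across genes of −0.34 and 0.40), but each level is itself part of the ratio, and genes are not independent replicates. Among the 38 genes at or over 10 FPKM without stimulus, 16 were at least 10-fold and 0 at least 100-fold higher. Among the 46 genes from 1 to under 10 FPKM, 27 were at least 10-fold and 9 at least 100-fold higher. Among the 21 genes from 0.1 to under 1 FPKM these counts were 15 and 10, and among the 19 genes under 0.1 FPKM they were 11 and 6. The 10 genes highest after LPS were *Cxcl10*, *Ccl5*, *Ccl4*, *Ccl3*, *Il1a*, *Tnf*, *Il1b*, *Tnfaip2*, the joined *Bcl2a1b* row and *Tnfrsf1b*. They made up 53.8% of the summed FPKM after LPS and 25.5% of that without stimulus. The 10 genes highest without stimulus made up 16.4% of the sum after LPS and 56.3% of that without stimulus, and 3 genes were in both sets.

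The largest ratios rest on very low unstimulated levels, which limits their precision. In all, 28 genes were under 1 FPKM without stimulus and at or over 1 FPKM after LPS, and 7 of these reached 100 FPKM or more (*Mx2*, *Mx1*, *Il6*, *Il12p40*, *Edn1*, *Il27* and *Ptgs2*). A further 12 genes were under 1 FPKM in both groups. In the authors' comparison of the genotypes without stimulus, cuffdiff left 21 genes untested, a status it gives to genes with too few reads, and after LPS it left 0 untested. Among the 15 genes with the largest ratios, 7 were untested in unstimulated cells. With 1 FPKM added to both means, the median log2 ratio of these 21 genes was 1.74, against 6.09 without the addition, and that of the other 103 genes was 3.25, against 3.44. The order at the top then became *Cxcl10*, *Ccl5*, *Il1b*, *Mx1* and *Il1a*, and 11 of the 15 genes remained among the first 15. *Mx2* took rank 11 in place of rank 1, with a log2 ratio of 7.12 after the addition and 12.14 without it. *Il12a*, *Tnfsf15*, *Il23a* and *Ptx3* left the 15 and took ranks 19, 21, 33 and 38. Among the role groups, the median log2 ratio with 1 FPKM added was 7.52 for pro-inflammatory cytokines, 5.95 for IL-12 family subunits and 5.33 for chemokines, so the IL-12 family no longer came first.

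**Figure D4:**
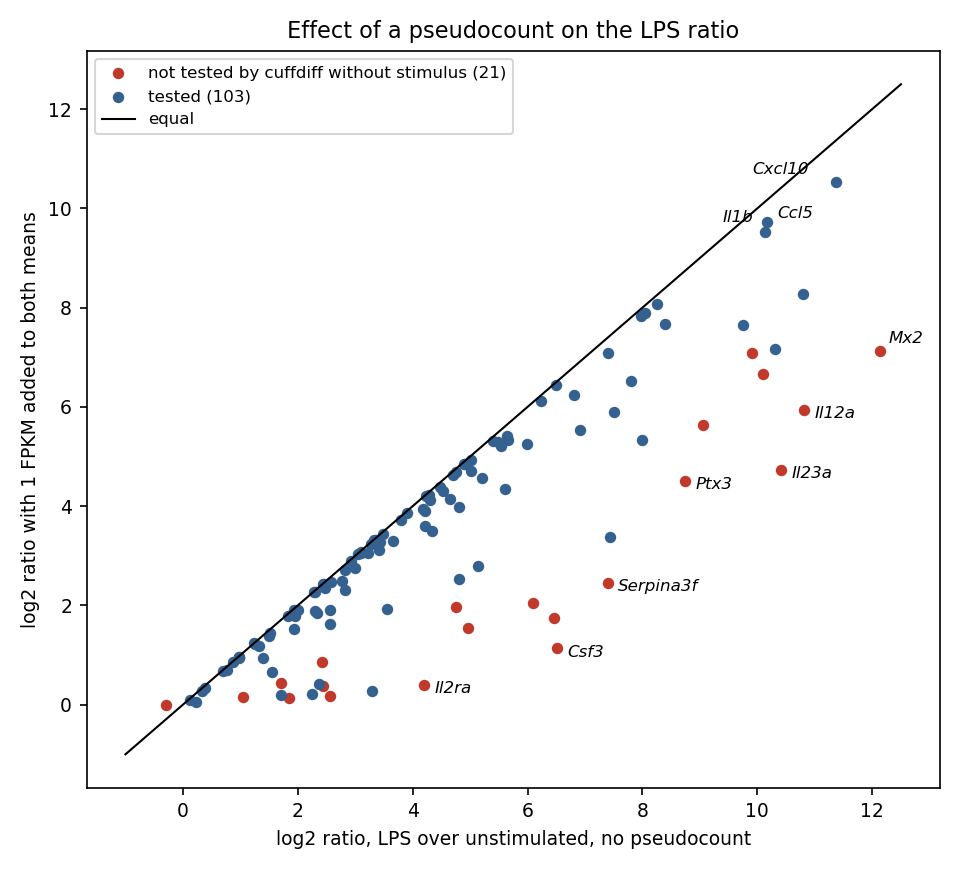
Log2 ratio of LPS over unstimulated for each gene with 1 FPKM added to both means (vertical axis) against the ratio with nothing added (horizontal axis), with the 21 genes that cuffdiff left untested between genotypes without stimulus in red. *Cxcl10*, *Ccl5* and *Il1b* stay near the line of equality, while *Mx2*, *Il12a*, *Il23a* and *Csf3* fall far below it.

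*N4bp1* KO cells given the same LPS dose had a median ratio over their own unstimulated mean of 8.93-fold, over 123 genes because *Il23a* is listed at 0 FPKM in unstimulated KO cells. At least 10-fold higher were 58 genes in KO cells and 69 in wild-type cells, and at least 100-fold higher were 17 and 25. The median ratio of the interferon-inducible list was 28.8-fold in KO cells, where the median gene was *Il15*, and 173-fold in wild-type cells, where it was *Cxcl9*. For *Cxcl9* the level after LPS was 8.87 FPKM in KO cells and 10.0 FPKM in wild-type cells, and the unstimulated level was 0.388 FPKM in KO cells and 0.0577 FPKM in wild-type cells. *Mx1* had 326 FPKM in KO cells and 376 FPKM in wild-type cells after LPS, and 0.633 and 0.212 FPKM without stimulus. In both genes the genotypes' means lay closer as a ratio after LPS than without stimulus, while their difference in FPKM was larger after LPS. The difference between the genotypes in these ratios was not tested.

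The identity of the cells could not be checked on the listed genes. Every marker among them is listed as NF-κB-dependent, so its level cannot separate a cell type from a response to LPS. Of 7 macrophage markers examined only 1 was listed, *Spi1*, at 304 FPKM after LPS and 167 FPKM without stimulus. The neutrophil markers present, 3 of 7 (*Lcn2*, *Mmp9* and *Trem1*), summed to 14.7 FPKM after LPS and 3.58 FPKM without stimulus. The 4 of 6 dendritic cell markers present summed to 536 FPKM after LPS and 32.9 FPKM without stimulus, mostly *Cd83*, and the 5 of 8 stromal and mesothelial markers to 92.7 and 1.45 FPKM, mostly *Vcam1*. The 2 of 5 B and T cell markers summed to 0.377 FPKM after LPS and 0.0581 FPKM without stimulus, and the 2 of 5 markers of resident macrophages, *Fn1* and *Thbs1*, to 217 and 97.7 FPKM. No measured marker was listed at 0. The part of other cell types in the ratios was not tested. In bulk RNA, more cells of a type and more RNA per cell cannot be told apart.

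Some rows do not isolate a single gene. The tables join several genes in 4 rows, and the loci of 18 of the 120 single-gene rows overlap another protein-coding gene in GENCODE. *Cxcl10* is given a locus of 82.8 kb that also covers *Art3*, that of *Ptx3* covers *Veph1*, and that of *Il27* covers *Apobr* and *Cln3*. The assignment of reads within these loci was not given in the sources used here.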

How the data were processed

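RNA was extracted from peritoneal macrophages of 12 samples in 6 groups (genotype by treatment, from the labels), and stranded mRNA libraries were sequenced in paired-end mode. The submitters' processing notes list CASAVA 1.8.2 along with TopHat2 2.0.10 (alignment, per the study's methods), Cufflinks 2.1.1 (transcript assembly) and build mm10, the assembly that GENCODE and RefSeq call GRCm38, and the study's methods name a later cuffdiff release. The authors deposited FPKM as the mean of the 2 mice in each group, and the scaling between treatments was not given in the sources used here. Fold changes, test scores, p-values and q-values that the authors deposited for the genotype comparison were not used. A duplicate deposited table held the same FPKM for all 124 genes within 0.1%.

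Ratios are wild-type LPS over wild-type unstimulated mean FPKM, with no pseudocount or filter. No test was possible. Locus starts were read as 0-based and increased by 1, since 81 of 120 then equal GENCODE starts and 0 do as written. The members and lists were chosen with earlier results of these data known. Named in most depth were the 15 largest ratios at or over 1 FPKM after LPS, the 10 smallest, the 10 highest levels after LPS and the interferon-inducible list, with others named within their role groups. Alternatives were pseudocounts of 0.1 and 1 FPKM, minimum levels, leaving out joined rows, the duplicate table, and scaling by *Spi1* or by the 31 smallest ratios. Scripts ran in Python 3.11.15 with pandas 2.3.3, numpy 2.4.6 and scipy 1.17.1, with figures by matplotlib 3.10.9, and the ratios and motif search were tested on simulated data.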

Additional observations from a re-analysis of the deposited data

How the results depend on the processing

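The median log2 ratio of 3.73 was 3.51 and 3.06 with 0.1 and 1 FPKM added to both means, 4.22 over the 112 genes at or over 1 FPKM in either group, 3.35 over the 84 at or over 1 FPKM in both, 4.04 over the 120 rows of single genes, 2.86 after division by the ratio of *Spi1* and 2.32 after division by the median ratio of the 31 genes of smallest ratio. Genes at least 100-fold higher numbered 25, and 14 with 1 FPKM added, 9 with the minimum in both groups and 15 under the scaling by 31 genes. With the minimum in both groups, which drops 40 genes, 75 were at least 2-fold and 43 at least 10-fold higher. Under the scaling by 31 genes, 108 genes stood above 0 and 15 below. This split was fixed in advance, because the divisor is the median of the 31 smallest ratios, so it does not measure robustness. Under the scaling by *Spi1* the counts were 116 and 7. Of the genes at least 2-fold higher before scaling, *Bcl2l11* (−0.14), *Prdm1* (−0.084), *Prkcd* (−0.16) and *Serpine2* (−0.36) had negative log2 ratios under the scaling by 31 genes. The others of the 15 were under 2-fold before it. The medians of all 17 role groups stayed above 0 in every setting run, the lowest being 0.37, but their order changed: IL-12 family subunits, highest at 9.90, had 5.95 with 1 FPKM added and 1.49 with the minimum in both groups, where *Ebi3* alone remained and the group came last. Growth factors and hormones had 1.99 and 4.34, against 4.49, and lipid mediator genes 1.74 and 2.60, against 4.22. In addition, the duplicate table changed no value by more than 0.1%. Both scalings assume that genes on an NF-κB list did not change, so they shift every ratio by 0.87 or 1.40. No paired analysis was possible because only group means are at hand, and leaving out each mouse could not be run for the same reason. Depth is unknown, so ratios of genes under 1 FPKM without stimulus have no stated precision.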
